A study of Homo sapiens with 6 samples.

Results

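AP-1 and immediate early factors are the 10 genes FOS, FOSB, FOSL1, FOSL2, JUN, JUNB, JUND, BATF3, MAFF and EGR1. They were chosen by name, with earlier results of these data known, and the gene tables list all 10 of them among 27968 genes. RNA came from H23 cells, a human lung adenocarcinoma line grown in serum. The tested cells received an siRNA that the labels call specific for HOTAIR-N, a variant of the lncRNA HOTAIR, and the other cells received a control siRNA. Both groups were transfected with the lipid reagent RNAiMAX, RNA was taken 48 h later, and each group held 3 libraries from separate transfections. The labels give 1 siRNA for each group and no untransfected cells, so a difference between the groups is a difference between those 2 siRNAs at 1 time. The RNA is that of a whole culture, in which a change in the share of cells and a change in RNA per cell cannot be told apart.

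AP-1 is a family of transcription factors that bind DNA as pairs held together by leucine zippers. JUN proteins pair with each other or with FOS proteins, FOS proteins need a JUN partner, BATF3 pairs with JUN proteins, and MAFF is a small MAF protein that lacks an activation domain of its own. EGR1 is a zinc finger factor of the same early response. Several of these genes, FOS and EGR1 above all, are switched on within minutes by growth factors through ERK signalling and serum response factor, and FOSL1 is known as a sustained product of RAS and ERK signalling in lung cancer cells. Many of these transcripts are known as short-lived. Levels were measured at 48 h after transfection alone, and their course before that was not measured.

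The promoter windows below are those of the 4 members that passed the test between the groups and have an entry in the RefSeq promoter table of build GRCh38.p14. Short motifs were marked in them by a match of letters alone. Each runs from 250 bases before the annotated start to 50 bases after it, 5′ to 3′ on the plus strand. JUNB lies at chr19:12791236-12791535, FOSL2 at chr2:28392608-28392907, EGR1 at chr5:138465229-138465528 and MAFF, the first of its 2 windows, at chr22:38201744-38202043. Capitals mark the core of the cyclic AMP response element (TGACG, or CGTCA on the other strand) in JUNB, FOSL2 and EGR1. They also mark the TATA box (TATAAA) in JUNB, the AP-1 site (TGACTCA) in FOSL2, the CArG boxes in EGR1 and the full cyclic AMP response element (TGACGTCA) in MAFF.
JUNB: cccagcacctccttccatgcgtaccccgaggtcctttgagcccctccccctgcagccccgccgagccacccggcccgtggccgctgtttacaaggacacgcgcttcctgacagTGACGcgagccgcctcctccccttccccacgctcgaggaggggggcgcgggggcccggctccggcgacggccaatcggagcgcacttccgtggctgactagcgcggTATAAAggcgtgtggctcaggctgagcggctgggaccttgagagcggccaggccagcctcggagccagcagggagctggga
FOSL2: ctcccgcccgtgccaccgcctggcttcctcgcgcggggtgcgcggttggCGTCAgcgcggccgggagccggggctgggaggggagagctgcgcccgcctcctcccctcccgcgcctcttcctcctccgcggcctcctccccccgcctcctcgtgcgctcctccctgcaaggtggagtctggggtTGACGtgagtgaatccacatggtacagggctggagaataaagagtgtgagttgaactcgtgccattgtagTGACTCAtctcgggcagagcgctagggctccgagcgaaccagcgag
EGR1: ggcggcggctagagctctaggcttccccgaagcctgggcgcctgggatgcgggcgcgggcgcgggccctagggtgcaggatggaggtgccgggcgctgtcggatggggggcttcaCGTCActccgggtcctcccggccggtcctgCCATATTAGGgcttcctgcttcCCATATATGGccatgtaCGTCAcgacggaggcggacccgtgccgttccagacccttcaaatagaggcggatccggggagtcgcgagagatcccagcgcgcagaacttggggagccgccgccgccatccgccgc
MAFF: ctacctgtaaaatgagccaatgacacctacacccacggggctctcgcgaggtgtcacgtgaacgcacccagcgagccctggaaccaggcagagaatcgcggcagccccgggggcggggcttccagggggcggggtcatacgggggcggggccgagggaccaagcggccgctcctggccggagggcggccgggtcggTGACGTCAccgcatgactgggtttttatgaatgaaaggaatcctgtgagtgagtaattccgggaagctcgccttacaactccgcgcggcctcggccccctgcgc

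The table held windows for 8 of the 10 members, and all 8 had a cyclic AMP response element core on either strand of a window, as did 24.55% of 35116 promoters. MAFF counts here by its first window, since its second, at chr22:38202770-38203069, had no core. The full element TGACGTCA, which contains that core, stood in the windows of JUND and MAFF and in 1.85% of all promoters. An AP-1 site, TGAGTCA or its reverse complement, was found in FOSL2, from +4 to +10, and in 4.95% of all promoters. CArG boxes, the serum response factor motif, were found in EGR1, at -105 to -96 and at -83 to -74, and in 1.29% of all promoters. TATAAA, searched on the coding strand and its complement, stood in the windows of FOS, FOSB and JUNB and in 11.53% of all promoters. None of the 8 members held GCGGGGGCG or GCGTGGGCG, the sites of EGR proteins, which stood in 5.77% of all promoters. A match is a run of letters in a window, and binding was not measured here. Sites outside the window or with other letters were not searched for, so a member without a match may still have such a site.

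The libraries held 32715361 to 35329948 expected counts (RSEM's estimated reads per gene) with HOTAIR-N siRNA and 34715341 to 36578681 with control siRNA. The row HOTAIR, which cannot separate HOTAIR-N from other HOTAIR transcripts, had 88, 74 and 82 expected counts with HOTAIR-N siRNA, against 169, 148 and 202 with control siRNA. It averaged 2.39 ± 0.26 CPM (counts scaled to library size) with HOTAIR-N siRNA and 4.90 ± 0.67 CPM with control siRNA (SD, n = 3 each), with a log2 fold change of -1.04 (SE 0.14, edgeR adjusted p = 1.32e-05). An exact two-sided permutation test of its CPM gave p = 0.1, the smallest that 3 against 3 libraries allow. The summed level of 5 epithelial markers was 2919 to 3289 TPM (deposited values adjusted for transcript length and library size) with HOTAIR-N siRNA and 3714 to 4422 TPM with control siRNA. Of those 5, CDH1 rose, KRT18 fell, and EPCAM, KRT8 and KRT19 did not pass. The lower sum came from KRT18, at a mean of 1535 TPM with HOTAIR-N siRNA and 2592 TPM with control siRNA. The means of EPCAM, KRT8, KRT19 and CDH1 were all higher with HOTAIR-N siRNA. Of 8 markers of blood, vessel and stromal cells, PTPRC, CD3E, PECAM1 and DCN stayed under 0.1 TPM in every library. LUM and VWF rose, and CD68 and CDH5 did not pass. The summed level was 11.2 to 12.2 TPM with HOTAIR-N siRNA and 8.65 to 11.1 TPM with control siRNA. Most of it was CD68, at a mean of 8.67 TPM with HOTAIR-N siRNA and 8.18 TPM with control siRNA. LUM stood at 2.66 and 1.41 TPM in that order, and VWF at 0.12 and 0.06 TPM. The part of the marker differences in the results below was not tested. Control replicate 1 differed most from its group: a chi-square per degree of freedom over genes, where sampling noise alone gives about 1, was 14.0 and 12.7 against control replicates 2 and 3. Control replicates 2 and 3 gave 6.75 against each other, above the pairs of HOTAIR-N siRNA libraries, which gave 2.05 to 5.66.

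Of the 10 members, JUNB and FOSL2 rose, FOSL1, MAFF and EGR1 fell, and FOS, FOSB, JUN, JUND and BATF3 did not pass edgeR's test at an adjusted p of 0.05. The change of JUNB was about 2-fold, and those of the other 4 were under 1.5-fold in either direction. Across all 15072 genes tested, 57.5% passed, 28.7% upwards and 28.8% downwards, so 5 of 10 members is a share close to that of any genes. Groups that did not overlap in CPM were seen for 4 members, JUNB upwards and the 3 that fell downwards, and for 62.9% of all genes, 31.6% upwards and 31.3% downwards. The median log2 fold change was 0.11 over the members and 0.01 over all genes, and the median size in either direction was 0.18 over the members and 0.29 over all genes. The plot of TPM in each library shows the members' levels.

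**Figure D1:**
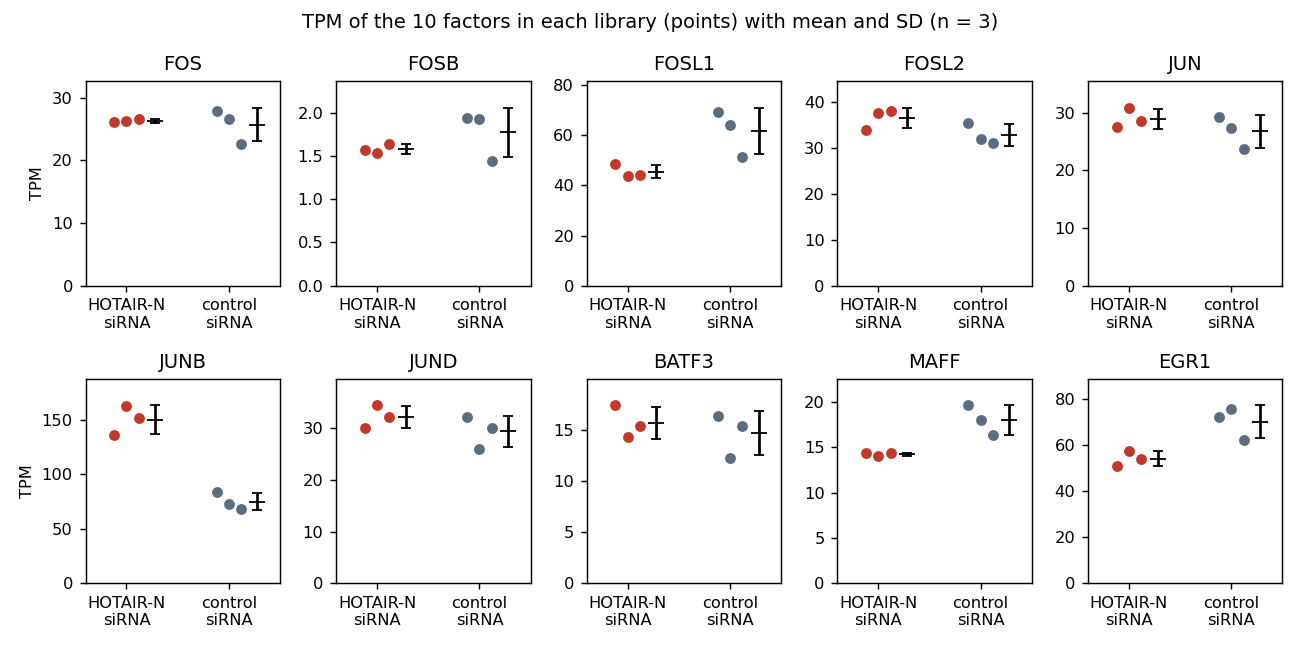
TPM of each of the 10 factors in the 3 libraries with HOTAIR-N siRNA (red points, left) and the 3 with control siRNA (grey points, right), each vertical axis starting at 0, with the mean and SD (n = 3) beside the points. JUNB with HOTAIR-N siRNA lies at 136 to 162 TPM, above its control libraries at 68.4 to 83.8 TPM, while the points of FOS, FOSB, FOSL2, JUN, JUND and BATF3 overlap between the groups.

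JUNB, the JUN protein that activates more weakly than JUN and can hold it back as a partner, had the largest change of the members. It stood at 136, 162 and 151 TPM with HOTAIR-N siRNA, against 83.8, 72.5 and 68.4 TPM with control siRNA. All 3 HOTAIR-N siRNA libraries were above all 3 control libraries by a wide margin. These levels rest on 3960, 4829 and 4717 expected counts with HOTAIR-N siRNA, against 2533, 2086 and 2127 with control siRNA. The fold was 2.06, a log2 fold change of 1.04 (SE 0.08, edgeR adjusted p = 7.65e-08). A higher log2 fold change was seen in 3.89% of all genes tested. JUNB was also the member that passed a test against a fold of 1.5 (edgeR's glmTreat function, adjusted p = 0.000118), which 11.3% of all genes passed, 5.51% upwards.

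JUN, the founding member that carries the strongest activation domain of its family, had 27.5, 30.9 and 28.5 TPM with HOTAIR-N siRNA, against 29.3, 27.4 and 23.6 TPM with control siRNA. The groups overlapped, and the log2 fold change was 0.16 (SE 0.08, edgeR adjusted p = 0.109). JUND, the JUN gene that is present at a steady level in most resting cells, had 30.0, 34.3 and 32.0 TPM with HOTAIR-N siRNA, against 32.0, 26.0 and 30.0 TPM with control siRNA. Its groups overlapped too, with a log2 fold change of 0.17 (SE 0.09, edgeR adjusted p = 0.113). Control replicate 1 held the highest control level of both genes. Without it both passed the test, JUN at 0.25 (edgeR adjusted p = 0.00314) and JUND at 0.26 (edgeR adjusted p = 0.00971), so whether either gene passed depended on that library.

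The JUN family was larger and more made up of JUNB with HOTAIR-N siRNA. Its summed level was 193, 227 and 212 TPM with HOTAIR-N siRNA, against 145, 126 and 122 TPM with control siRNA, groups that did not overlap. JUNB made up 71.0 ± 0.63% of that sum with HOTAIR-N siRNA and 57.1 ± 0.94% with control siRNA (SD, n = 3 each). JUN made up 13.7 ± 0.40% with HOTAIR-N siRNA and 20.4 ± 1.20% with control siRNA, and JUND 15.2 ± 0.23% with HOTAIR-N siRNA and 22.4 ± 1.99% with control siRNA. These sums and shares are descriptions with no test, and they are of RNA, not protein.

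In the FOS family FOSL1 fell, FOSL2 passed narrowly upwards, and FOS and FOSB did not pass. FOSL1 (FRA-1), which lacks the activation domain of FOS and is the FOS protein most tied to RAS-driven tumour cells, had 48.5, 43.7 and 44.2 TPM with HOTAIR-N siRNA, against 69.4, 64.3 and 51.5 TPM with control siRNA. Each HOTAIR-N siRNA library lay below each control library, although control replicate 3 came close. The fold was 0.758, a log2 fold change of -0.40 (SE 0.09, edgeR adjusted p = 0.00210). FOSL1 did not pass the test against a fold of 1.5 (edgeR adjusted p = 1.0).

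FOSL2 (FRA-2), the near relative of FOSL1, had 33.9, 37.7 and 38.0 TPM with HOTAIR-N siRNA, against 35.5, 31.9 and 31.1 TPM with control siRNA. HOTAIR-N replicate 1 lay below control replicate 1, so the groups overlapped. It rose at a log2 fold change of 0.19 (SE 0.07, edgeR adjusted p = 0.0302), close to the threshold. The call was lost without HOTAIR-N replicate 2 (0.17, edgeR adjusted p = 0.0997), HOTAIR-N replicate 3 (0.17, edgeR adjusted p = 0.124), control replicate 2 (0.15, edgeR adjusted p = 0.121) or control replicate 3 (0.16, edgeR adjusted p = 0.106). It was also lost in limma's test of log2(TPM + 1), at 0.15 (adjusted p = 0.1004).

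FOS, the first AP-1 gene induced after a stimulus, had 26.1, 26.3 and 26.7 TPM with HOTAIR-N siRNA, against 27.8, 26.6 and 22.7 TPM with control siRNA. The groups overlapped, and the log2 fold change was 0.08 (SE 0.08, edgeR adjusted p = 0.411). Without control replicate 1 it passed, at 0.16 (edgeR adjusted p = 0.0406). FOSB, the least abundant member, had 1.57, 1.53 and 1.64 TPM with HOTAIR-N siRNA, against 1.94, 1.93 and 1.44 TPM with control siRNA. Its groups overlapped as well, with 97 to 129 expected counts in a library and a log2 fold change of -0.12 (SE 0.14, edgeR adjusted p = 0.497).

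The summed FOS family stood at 110.0, 109.2 and 110.4 TPM with HOTAIR-N siRNA, against 134.7, 124.8 and 106.7 TPM with control siRNA, groups that overlapped. Within it FOSL1 made up 41.4 ± 2.32% with HOTAIR-N siRNA and 50.4 ± 1.90% with control siRNA (SD, n = 3 each). FOSL2 made up 33.2 ± 2.08% with HOTAIR-N siRNA and 27.0 ± 1.87% with control siRNA, and FOS 24.0 ± 0.23% with HOTAIR-N siRNA and 21.1 ± 0.38% with control siRNA. FOSB made up 1.44% with HOTAIR-N siRNA and 1.45% with control siRNA. The ratio of JUN family to FOS family TPM was 1.76, 2.08 and 1.92 with HOTAIR-N siRNA, against 1.08, 1.01 and 1.14 with control siRNA. The groups did not overlap. JUNB alone made up most of the difference in the JUN sum, and the plot of family shares shows both families.

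**Figure D2:**
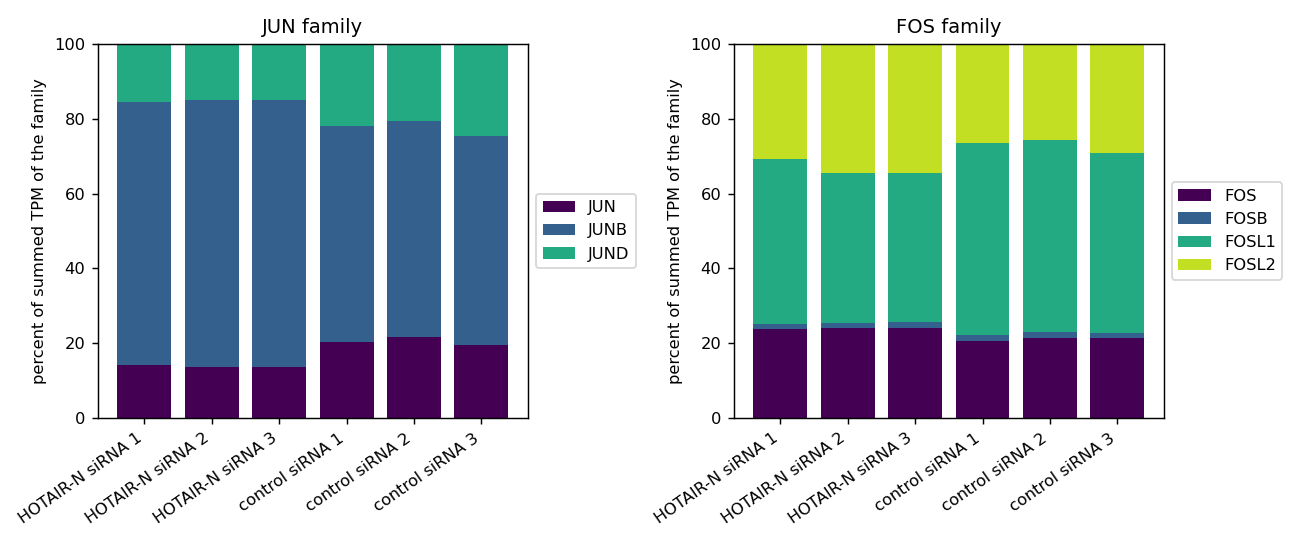
Percent of the summed TPM of the JUN family (left) and of the FOS family (right) held by each member in each of the 6 libraries, stacked to 100, with the 3 HOTAIR-N siRNA libraries before the 3 control siRNA libraries. JUNB holds 70.3 to 71.4% of the JUN family in the HOTAIR-N siRNA libraries and 56.1 to 57.7% in the control libraries, and FOSL1 holds 40.0 to 44.0% of the FOS family with HOTAIR-N siRNA and 48.2 to 51.5% with control siRNA.

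BATF3, a small leucine zipper protein best known from dendritic cells, where it pairs with JUN proteins, had 17.4, 14.3 and 15.4 TPM with HOTAIR-N siRNA, against 16.4, 12.3 and 15.4 TPM with control siRNA. The groups overlapped, with a log2 fold change of 0.14 (SE 0.13, edgeR adjusted p = 0.356). MAFF, which as a pair with itself or other small MAF proteins occupies DNA without activating, had 14.3, 14.0 and 14.3 TPM with HOTAIR-N siRNA, against 19.6, 18.0 and 16.4 TPM with control siRNA. Every HOTAIR-N siRNA library was lower than every control library. MAFF fell with a fold of 0.821, a log2 fold change of -0.28 (SE 0.08, edgeR adjusted p = 0.00828), and at -0.19 without control replicate 1 it still passed.

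EGR1, the second most abundant member, had 50.7, 57.4 and 54.0 TPM with HOTAIR-N siRNA, against 72.2, 75.7 and 62.1 TPM with control siRNA. The highest HOTAIR-N siRNA library was below the lowest control library. The fold was 0.796, a log2 fold change of -0.33 (SE 0.07, edgeR adjusted p = 0.00102). The levels rest on 2664, 3082 and 3028 expected counts with HOTAIR-N siRNA, against 3938, 3929 and 3478 with control siRNA. EGR1 and MAFF, like FOSL1, did not pass the test against a fold of 1.5, with an edgeR adjusted p of 1.0 for each. The plot of log2 fold changes sets the 10 members side by side.

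**Figure D3:**
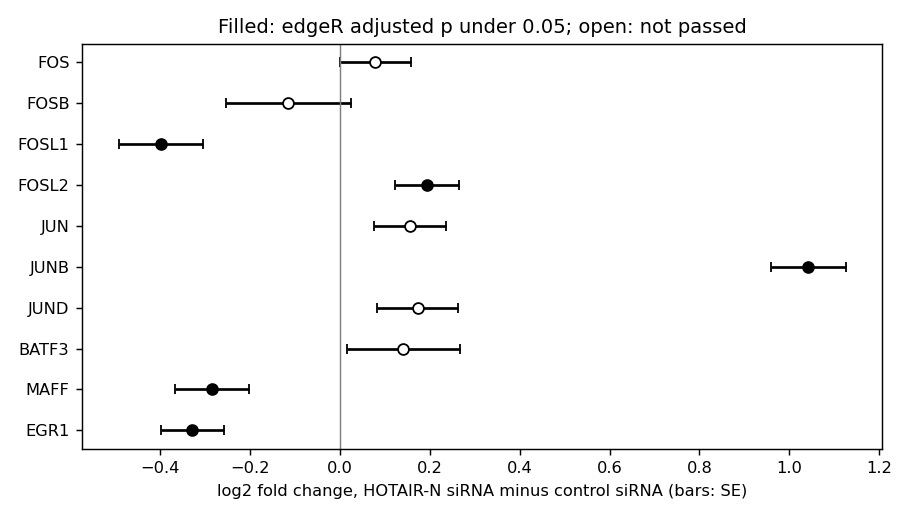
Log2 fold change of the 10 factors, HOTAIR-N siRNA minus control siRNA, with bars of 1 SE, filled where the edgeR adjusted p is under 0.05 and open where it is not. JUNB stands alone near 1.04, FOSL1, MAFF and EGR1 lie between -0.28 and -0.40, and the other 6 lie between -0.12 and 0.19.

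By TPM, which allows levels of different genes to be compared, the order with HOTAIR-N siRNA was JUNB (149.8 ± 13.1), EGR1 (54.0 ± 3.34), FOSL1 (45.4 ± 2.62), FOSL2 (36.5 ± 2.25), JUND (32.1 ± 2.18), JUN (29.0 ± 1.73), FOS (26.3 ± 0.29), BATF3 (15.7 ± 1.56), MAFF (14.2 ± 0.17) and FOSB (1.58 ± 0.06; SD, n = 3). In that order FOSL2 and JUND, JUND and JUN, and BATF3 and MAFF overlapped between libraries. With control siRNA the order began with JUNB (74.9 ± 7.95), EGR1 (70.0 ± 7.07) and FOSL1 (61.7 ± 9.23), neighbours that overlapped. It went on with FOSL2, JUND, JUN and FOS, each overlapping the next, then MAFF, BATF3 and FOSB. JUNB was above every other member in each HOTAIR-N siRNA library. In control replicate 2 EGR1 was above it, and FOSL1 was below it in all 3 control libraries.

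Leaving out each library in turn kept JUNB up and FOSL1, MAFF and EGR1 down in all 6 fits. JUNB ranged from 0.98 to 1.16, EGR1 from -0.28 to -0.40, FOSL1 from -0.28 to -0.51 and MAFF from -0.19 to -0.35 on the log2 scale. The number of members that rose was 1 to 5. It was 5 without control replicate 1, when FOS, JUN and JUND joined JUNB and FOSL2. It was 1, JUNB alone, without HOTAIR-N replicate 2, HOTAIR-N replicate 3, control replicate 2 or control replicate 3.

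**Figure D4:**
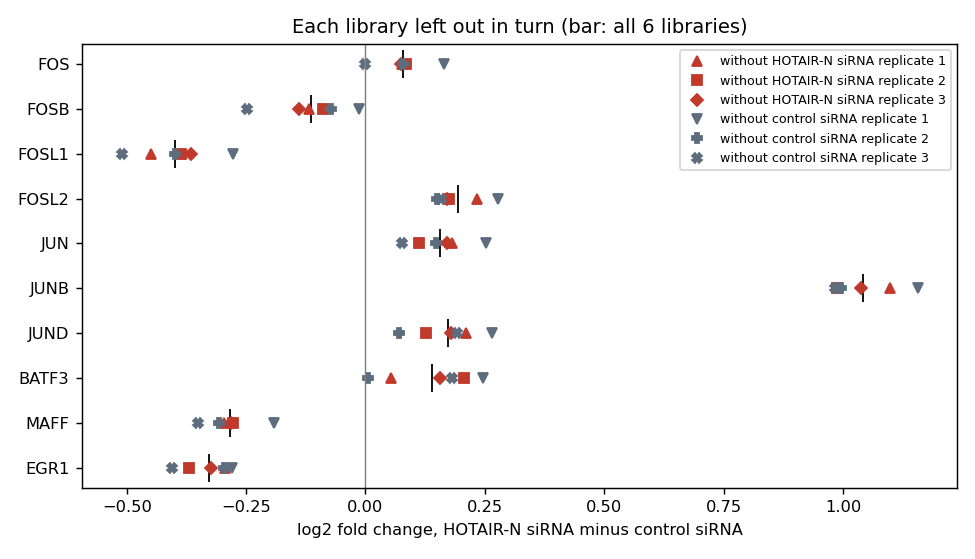
Log2 fold change of each factor, HOTAIR-N siRNA minus control siRNA, with each of the 6 libraries left out in turn (red symbols for a HOTAIR-N siRNA library, grey for a control library) and with all 6 (black bar). Leaving out control replicate 1 (grey triangle) moves all 10 factors upwards, JUNB to 1.16, and no symbol of JUNB, FOSL1, FOSL2, MAFF or EGR1 crosses 0.

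Overlapping genes on the opposite strand bear on 4 members, since how the counting treated strand is not given in the sources used here. HOOK2, which overlaps JUNB, rose by 0.54 (SE 0.09, edgeR adjusted p = 0.000117). It had 343, 395 and 410 expected counts with HOTAIR-N siRNA, against 283, 243 and 287 with control siRNA. The part of overlapping reads in the values of JUNB was not tested. ERCC1, which overlaps the low FOSB, rose by 0.50 (SE 0.06, edgeR adjusted p = 4.27e-06) and had 3267 to 3620 expected counts with HOTAIR-N siRNA, against 2424 to 2617 with control siRNA. PLA2G6, beside MAFF, did not pass (0.15, edgeR adjusted p = 0.271). FLJ31356, beside FOSL2, was below the filter with 10 to 13 expected counts with HOTAIR-N siRNA, against 0 to 3 with control siRNA. The members had no fractional expected counts at gene level.

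At isoform level, 20 RefSeq transcripts of the members were listed and 18 were tested. The JUNB transcript NM_002229, its single listed form, rose by 1.05 (edgeR adjusted p = 0.00284) and was the 1 member isoform that passed (3 had an unadjusted p under 0.05), where 19.5% of 32627 isoforms passed. The EGR1 transcript NM_001964 stood at -0.32 and just missed the threshold (SE 0.08, edgeR adjusted p = 0.0536). FOSL1 had 6 listed transcripts, and its main form NM_005438 made up 65.5 ± 6.30% of the gene with HOTAIR-N siRNA and 64.1 ± 2.23% with control siRNA (authors' percent, SD, n = 3 each). The non-coding FOSL1 transcript NR_125339 made up 24.3, 4.12 and 25.3% with HOTAIR-N siRNA, against 16.8, 21.5 and 15.5% with control siRNA. HOTAIR-N replicate 2 thus stood apart within its own group. MAFF was mostly NM_012323, at 69.1 ± 11.5% with HOTAIR-N siRNA and 61.9 ± 5.87% with control siRNA.

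The shorter FOSB transcript NM_001114171 has 3668 bases, against 3776 for NM_006732. It was listed at 0 in all 3 HOTAIR-N siRNA libraries and in control replicates 1 and 2. In control replicate 3 it was listed at 30.3 expected counts. That is 31.9% of FOSB in that library, as RSEM divided its reads. The 2 JUND transcripts have the same length and were given exactly equal shares in every library, so they hold no information on isoforms. Isoform use within a gene could be tested for FOSL1, JUND and MAFF, and none of the 3 passed (edgeR's diffSpliceDGE function, adjusted p = 1.0 for each, and none with an unadjusted p under 0.05), where 4.13% of 7523 genes passed.

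The 3′ UTRs of these genes are known for AU-rich elements, by which ZFP36 and its relatives shorten the life of early response transcripts. The 7-base word TATTTAT was present in the 3′ UTR of 7 of the 10 members and in 34.7% of 13114 genes. FOS had 2 such sites, beginning at bases 647 and 671 of the UTR, FOSL1 had 1, at base 597, and MAFF had 2, at 1047 and 1536, with the word in capitals (GENCODE 29 transcripts, written as DNA).
FOS at 647: gtttttaattTATTTATtaagatggat
FOS at 671: gattctcagaTATTTATatttttattt
FOSL1 at 597: gggcagctgcTATTTATtttcctaaag
MAFF at 1047: ccccactgttTATTTATtgcacggatc
MAFF at 1536: tcctagaattTATTTATttcctgactt
FOSB, FOSL2, JUN and JUND also had the word, and JUNB, EGR1 and BATF3 did not, so members with it include 1 that rose and 2 that fell. The one that rose is FOSL2, whose searched UTR has 4864 bases, with the word at 3657 and 3918. The FOSL2 transcript that was counted, NM_005253, has 3991 bases in all. A match in the searched UTR may therefore lie outside the counted transcript. Genes with the word had a median log2 fold change of -0.05, and genes without it 0.02. The words GACCAAT or ACCAATA, picked from earlier results on these libraries, were in 11.9% of 3′ UTRs. Genes with either word had a median log2 fold change of -0.24, and genes with neither 0.02. As the words came from these same data, that gap is a description and no test. FOS and FOSL2 carried both, FOSB carried GACCAAT and JUN carried ACCAATA, while FOSL1, JUNB, JUND, BATF3, MAFF and EGR1 carried neither. Members were also rich in GC, at 52.6 to 69.7% of the transcript with a median of 58.5%, against 49.3% for all genes. With a smooth trend of the fold change on gene length and GC removed, JUNB stood at 0.83, FOSL2 at 0.24, FOSL1 at -0.52, MAFF at -0.38 and EGR1 at -0.34, each still past the threshold. JUND turned from positive to negative, at -0.13 (adjusted p = 0.241), as did BATF3, at -0.10 (adjusted p = 0.519), and neither passed in either fit.

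Changes in the partners of these factors, and in the lists that follow, were measured in the same fit. All these lists were chosen with earlier results of these data known. Their shares beside those of all genes are therefore descriptions, not tests. Of 13 other AP-1 and small MAF partners, 12 were tested, 2 rose, 6 fell and 4 did not pass, so that 66.7% passed, against 57.5% of all genes. The median log2 fold change was -0.20 and the median size in either direction 0.33, against 0.29 over all genes. JDP2, a repressor that pairs with JUN proteins, had 0.27, 0.25 and 0.22 TPM with HOTAIR-N siRNA, against 0.95, 0.95 and 0.79 TPM with control siRNA (-1.80, SE 0.20, edgeR adjusted p = 2.52e-06). MAFK, a small MAF relative of MAFF, moved the other way from it, at 37.9 ± 2.08 TPM with HOTAIR-N siRNA and 25.2 ± 1.86 TPM with control siRNA (0.63, SE 0.07, edgeR adjusted p = 2.83e-06). The other small MAF gene of the list, MAFG, fell as MAFF did (-0.22, SE 0.07, edgeR adjusted p = 0.0121). Among large partners of small MAF proteins, NFE2L3 fell by 0.69 (SE 0.06, edgeR adjusted p = 2.16e-07) and NFE2L1 by 0.37 (SE 0.06, edgeR adjusted p = 7.37e-05). BACH2, a repressor of the same group, was at or under 0.18 TPM in every library and fell by 1.42 (SE 0.29, edgeR adjusted p = 0.000706), a call lost in limma's test of log2(TPM + 1) (adjusted p = 0.0600).

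SRF, its MKL coactivators and the ELK ternary complex factors act on CArG boxes such as those of EGR1, and CREB1, listed with them, binds the cyclic AMP response element. Of these 7 genes 6 fell and CREB1 did not pass, where 28.8% of all genes fell. With the length trend removed, or in limma's tests of log2(TPM + 1) and log2(TPM + 0.1), CREB1 rose and the same 6 fell. With the length and GC trend removed, 1 of the 7 rose and 5 fell. The median log2 fold change was -0.30. In all 6 that fell every HOTAIR-N siRNA library lay below every control library, as in 31.3% of all genes. ELK3 had 39.1, 39.6 and 40.7 TPM with HOTAIR-N siRNA, against 81.7, 93.9 and 85.8 TPM with control siRNA (-1.09, SE 0.05, edgeR adjusted p = 5.71e-10). SRF itself had 51.3, 52.1 and 55.1 TPM with HOTAIR-N siRNA, against 71.1, 64.5 and 60.6 TPM with control siRNA (-0.25, SE 0.07, edgeR adjusted p = 0.00542). Its actin-controlled coactivators fell too, MKL2 by 0.75 (SE 0.06, edgeR adjusted p = 1.16e-07) and MKL1 by 0.46 (SE 0.08, edgeR adjusted p = 0.000133). ELK4 stood at -0.30 (SE 0.08, edgeR adjusted p = 0.00466), a call lost after correction for the trend with length and GC (-0.19, adjusted p = 0.0511).

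Of 17 kinases and ligases that act on AP-1 proteins, 2 rose, 8 fell and 7 did not pass, with a median of -0.15. The 58.8% that passed is close to the 57.5% of all genes. The JUN kinases MAPK8 and MAPK9 fell by 0.38 (SE 0.07, edgeR adjusted p = 0.000263) and 0.46 (SE 0.08, edgeR adjusted p = 0.000162). MAP2K1, a kinase that activates ERK, had 28.1 ± 0.91 TPM with HOTAIR-N siRNA and 36.8 ± 1.08 TPM with control siRNA (-0.34, SE 0.06, edgeR adjusted p = 0.000162). RPS6KA1, which acts below ERK, rose by 0.40 (SE 0.06, edgeR adjusted p = 3.22e-05). MAPK7 stood at -0.27 (SE 0.08, edgeR adjusted p = 0.00909) and did not pass without HOTAIR-N replicate 3 (-0.21, adjusted p = 0.0777). The count that rose was 1 without HOTAIR-N replicate 2, HOTAIR-N replicate 3, control replicate 2 or control replicate 3. Of the EGR co-repressors, NAB2, itself known as a target of EGR1, rose by 0.32 (SE 0.07, edgeR adjusted p = 0.000720). NAB1 did not pass (0.12, edgeR adjusted p = 0.143), except after correction for the trend with length and GC (0.21, adjusted p = 0.0207).

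Of 25 other immediate early genes, 13 were called higher and 6 lower, and 6 did not pass, with a median log2 fold change of 0.19. Of all genes 28.7% rose and 28.8% fell. IER3, known as a survival gene, had 598, 631 and 608 TPM with HOTAIR-N siRNA, against 395, 346 and 325 TPM with control siRNA (0.83, SE 0.07, edgeR adjusted p = 1.65e-07). The orphan receptor gene NR4A2 had 123, 127 and 126 TPM with HOTAIR-N siRNA, against 64.4, 72.5 and 76.1 TPM with control siRNA (0.86, SE 0.06, edgeR adjusted p = 1.57e-08). ZFP36, whose protein binds AU-rich elements, stood at 24.4 ± 0.46 TPM with HOTAIR-N siRNA and 14.4 ± 1.09 TPM with control siRNA (0.81, SE 0.08, edgeR adjusted p = 1.01e-06), and the p53-responsive gene BTG2 rose by 0.83 (SE 0.08, edgeR adjusted p = 2.90e-07). CTGF, a matrix gene read by SRF and YAP, had 45.4 ± 1.06 TPM with HOTAIR-N siRNA and 83.8 ± 9.87 TPM with control siRNA (-0.84, SE 0.08, edgeR adjusted p = 2.86e-07). The early genes thus did not move as one, and JUNB lay beside IER3, NR4A2, ZFP36 and BTG2 in size while EGR1 lay on the side of CTGF.

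Of 22 genes known as AP-1 targets, 19 were tested, 9 rose, 4 fell and 6 did not pass, with a median of 0.35. The share that passed was 68.4%, against 57.5% of all genes, a description of a list chosen with earlier results known. The collagenase MMP1 had 24.7, 22.2 and 22.4 TPM with HOTAIR-N siRNA, against 6.78, 7.31 and 7.72 TPM with control siRNA (1.71, SE 0.08, edgeR adjusted p = 4.85e-10). The chemokine genes CXCL8 (1.48, SE 0.08, edgeR adjusted p = 7.16e-10) and CCL2 (1.43, SE 0.08, edgeR adjusted p = 3.48e-09) rose, as did the cytokine gene LIF (0.56, SE 0.07, edgeR adjusted p = 4.38e-06). VEGFA, the vascular growth factor, had 31.4 ± 1.23 TPM with HOTAIR-N siRNA and 50.5 ± 1.62 TPM with control siRNA (-0.63, SE 0.06, edgeR adjusted p = 5.82e-07). The 3 genes that were not tested, MMP13, IL6 and CSF2, fell below the filter on low counts. The count that fell was 2 without HOTAIR-N replicate 2, HOTAIR-N replicate 3 or control replicate 1. These genes answer to other factors as well, and AP-1 binding was not measured. The plot of all lists sets these groups beside the members.

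**Figure D5:**
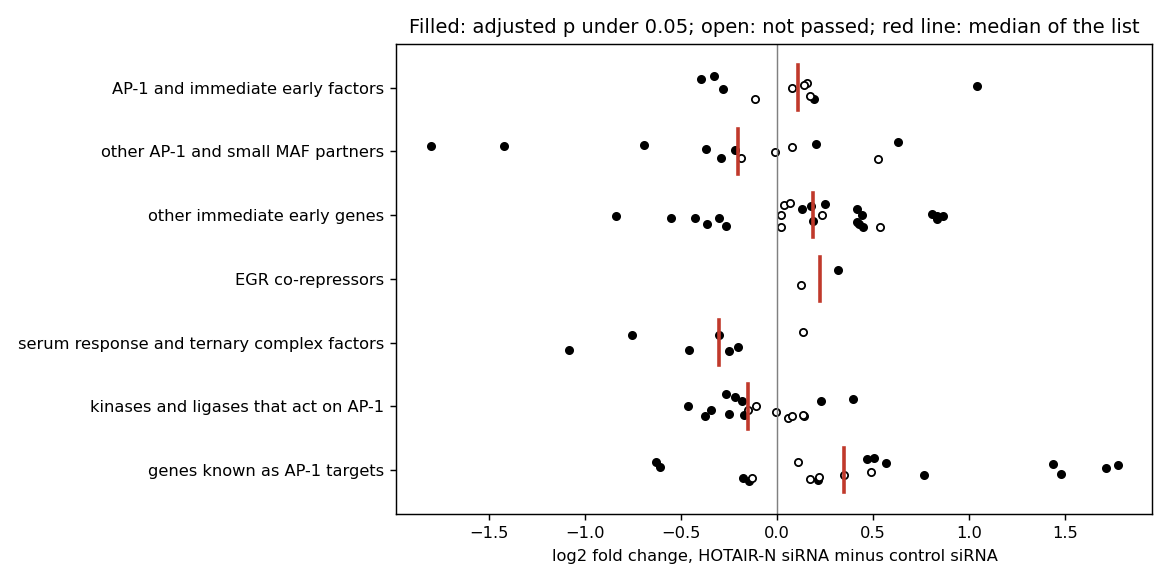
Log2 fold change, HOTAIR-N siRNA minus control siRNA, of each tested gene in the 10 factors (top row) and in 6 lists of related genes, with filled points where the edgeR adjusted p is under 0.05, open points where it is not, and a red line at the median of the list. The serum response and ternary complex factors lie mostly left of 0 (median -0.30) and the AP-1 targets mostly right of it (median 0.35), while 9 of the 10 factors lie between -0.40 and 0.19.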

How the data were processed

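Per the file headers, the authors deposited RSEM expected counts (estimated reads per gene or isoform), TPM and FPKM (length-adjusted values scaled within each library) and, for isoforms, the percent of the gene. Per the submitters' processing notes, the tools were STAR 2.6.0c and RSEM 1.3.0 on hg19. The annotation release, and how the counting treated strand, is not given in the sources used here. Per the labels' protocols, libraries were made with a stranded kit after ribosomal RNA depletion. FPKM was not used.

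Expected counts were rounded and fitted over the whole gene table with edgeR 4.0.16 in R 4.3.3: filterByExpr by group, TMM scaling, robust quasi-likelihood test, Benjamini-Hochberg threshold 0.05. Isoforms were tested likewise and isoform use with diffSpliceDGE. Each log2 fold change has HOTAIR-N siRNA on top and control siRNA below. The scripts were tested on simulated data. Alternatives used DESeq2 1.42.0, limma 3.58.1, other scalings and filters, log2(TPM + 1) and log2(TPM + 0.1), a replicate block, a fold of 1.5 and left-out libraries; removal of a length and GC trend was added after seeing the data.

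The members and lists were chosen with earlier results of these data known. Named were all members, HOTAIR, and from each list up to 5 tested genes with the smallest p. Genes overlapping members, the marker genes, MAFG and CREB1 were named after their values were seen. Depth was 32715361 to 36578681 expected counts per library. Isoform values also hold an unstated error from reads shared between transcripts. Promoters came from RefSeq GRCh38.p14 and 3′ UTRs from GENCODE 29, matched by RefSeq name for UTRs of at least 50 bases. GRCh38 gene spans were used to find genes that overlap members, and their hg19 counts were then taken by gene name. No GRCh38 coordinate was used to count reads.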

Additional observations from a re-analysis of the deposited data

How the results depend on the processing

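JUNB rose and HOTAIR fell under every alternative run (JUNB 0.83 to 1.16, HOTAIR -0.80 to -1.14 on the log2 scale), and FOSL1, MAFF and EGR1 fell under all but the test against a fold of 1.5. With that test 1 member rose and 0 fell, 1700 of 15072 genes passed (11.3%) and 13 genes of the related lists passed, against 57 without a minimum fold. Of the members, 1 rose in limma's test of log2(TPM + 1) or log2(TPM + 0.1), the one lost being FOSL2. With 1 library left out, 7503 to 9234 genes passed, 1 to 5 members rose, 50 to 63 genes of the lists passed, 3551 to 5647 isoforms passed against 6362 with all libraries, 1 to 2 member isoforms passed and 186 to 251 genes passed for isoform use against 311. DESeq2 called 10043 isoforms. Under RLE size factors, upper-quartile scaling, a stricter filter, DESeq2 or limma-voom, 2 member isoforms passed, the second being that of EGR1. The cause of these differences was not tested. In the left-out sets, HOTAIR-N siRNA over control siRNA was 1.55 to 1.70 for the summed JUN family and 0.85 to 0.95 for the FOS family. JUNB made up 70.8 to 71.4% of the JUN family with HOTAIR-N siRNA and 56.8 to 57.7% with control siRNA. A mean of 3 libraries can move only within their spread when 1 is left out, so these ranges are no test. Counts near those of FOSB limit what can be seen, as do isoform values.

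The labels number the libraries 1 to 3 in both groups, and the values showed no pairing by number. Same-numbered libraries had correlations of deviations of -0.12, 0.02 and -0.04. No HOTAIR-N siRNA library correlated best with the control library of its own number. From 3 libraries a group, this cannot exclude that same-numbered libraries were handled together. With the replicate block, 1 member rose, FOSL2 missing the threshold (0.20, adjusted p = 0.0570), 2012 isoforms passed and 141 genes passed for isoform use.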
